A study of Mus musculus with 8 samples.

Results

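Ribosomes are built from proteins of separate gene sets. The cytosolic ribosome, which translates the messages of nuclear genes, combines a small and a large subunit around ribosomal RNAs made by RNA polymerase I and RNA polymerase III. The mitochondrial ribosome also has a small and a large subunit, its proteins are encoded in the nucleus and imported, and it translates the few respiratory chain subunits encoded by mitochondrial DNA. The cytosolic and mitochondrial ribosomal protein genes were compared here, each ribosome apart, between ADAM12+ and ADAM12- stromal cells of a mouse melanoma. Members were the genes whose symbols carry the Rps or Rpl stem (with Rplp and Rpsa) for the cytosolic ribosome, and the Mrps or Mrpl stem for the mitochondrial one. This gave 83 cytosolic and 78 mitochondrial genes, 161 of the 53801 genes in the table. Symbols of annotated processed pseudogenes can match too, among them Rpl6l and Rps4l, and Rps4l is among the cytosolic genes tested below. The rule reads symbols alone, though the gene sets were picked with earlier results of these data known.

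The cells came from MO5 tumours, grown under the skin from B16 melanoma cells that express ovalbumin, and taken in the second week. The hosts were young adult mice on the C57Bl/6 background that carry ADAM12-GFP, a bacterial artificial chromosome transgene with Cre-Ires-GFP, so that GFP reports the activity of the Adam12 promoter carried by the transgene. All sorted cells were PDPN+ PDGFRα+ CD45- CD31-, and they were divided by the reporter into GFP+ (ADAM12+) and GFP- (ADAM12-) cells with 4 libraries each. Both groups therefore share the host genotype, the tumour model and the gate. By the general statement of the study's methods, replicates are mice unless said otherwise, and the labels name no mouse for any library. Whether a GFP+ and a GFP- library with the same number came from the same mouse is not given in the sources used here.

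Library depth ran from 883144 reads in GFP- replicate 3 to 31666734 in GFP+ replicate 4, and the other 6 libraries held between 7868787 and 25099664. One read of GFP- replicate 3 counts as 11.0 normalised reads (reads divided by the size factor of the library), and its values are given with that limit. Adam12 itself was between 920 and 1693 normalised counts in GFP- and between 1833 and 2938 in GFP+ libraries, with no overlap (DESeq2 adjusted p = 0.0266, edgeR adjusted p = 0.0638). Fibroblast markers, among them Pdgfra and Pdpn of the gate, were abundant in both groups. Their summed level was 263100 to 568300 in GFP- and 680800 to 780500 in GFP+ libraries. All 10 had a log2 fold change above 0, with a median of 0.82, and 7 were called higher in GFP+ cells by DESeq2 and 6 by edgeR; their part in the differences given below was not tested. Markers of melanocytes, the lineage of the tumour cells, were present in both groups and higher in GFP- cells. All 13 with a count passed the DESeq2 test as lower in GFP+ cells, and their summed level was 27170 to 78960 in GFP- and 4653 to 12540 in GFP+ libraries, with Mc1r alone at 0 throughout. Leukocyte markers summed to 1037 to 6779 in GFP- and 1095 to 5418 in GFP+ libraries with 0 of 16 called by DESeq2 or edgeR and 0 at an unadjusted p under 0.05, and 1 of 8 endothelial markers was called (lower). In sorted bulk samples, more cells of a type and more RNA per cell cannot be told apart.

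The summed reads on the protein genes of the 2 ribosomes were compared first. Mitochondrial ribosomal protein genes took a smaller share of reads in GFP+ cells, and the cytosolic shares overlapped between groups. The mitochondrial genes took 0.125%, 0.128%, 0.107% and 0.147% of reads in GFP- replicates 1 to 4, and 0.0924%, 0.0901%, 0.0879% and 0.0892% in GFP+ replicates 1 to 4. Every GFP+ library lay below every GFP- library, with a GFP- mean of 0.127% ± 0.0165 (SD, n = 4), a GFP+ mean of 0.0899% ± 0.0019 (SD, n = 4) and a ratio of 0.710. The spread was wide among GFP- and narrow among GFP+ libraries.

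The cytosolic genes took 1.27%, 1.17%, 1.09% and 1.32% of reads in GFP- and 1.25%, 1.25%, 1.28% and 1.14% in GFP+ replicates 1 to 4. The groups overlapped, with means of 1.21% ± 0.104 (SD, n = 4) and 1.23% ± 0.0627 (SD, n = 4). The difference of 0.0196 percentage points turned to -0.0217 without GFP- replicate 3 and was 0.0566 without GFP- replicate 4. With library totals scaled by TMM factors it was 0.169 percentage points, and the mitochondrial difference was -0.0237 in place of -0.0367. With mitochondrially encoded genes left out of the totals, the cytosolic difference was 0.0038 and the mitochondrial -0.0402. The counting error was small beside these spreads. For GFP- replicate 3, the shallowest library, the exact Clopper-Pearson 95% interval was 1.07% to 1.11% for the cytosolic share, from 9614 reads, and 0.09996% to 0.114% for the mitochondrial share, from 942 reads. These intervals cover counting error only, since reads were not collapsed to molecules.

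The ratio of cytosolic to mitochondrial ribosomal protein reads needs no normalisation between libraries. It was 10.2, 9.14, 10.2 and 9.01 in GFP- and 13.6, 13.9, 14.6 and 12.8 in GFP+ replicates 1 to 4. The groups did not overlap, with means of 9.63 ± 0.647 (SD, n = 4) and 13.7 ± 0.747 (SD, n = 4). GFP- replicate 3, with the lowest share of both ribosomes among GFP- libraries, had the highest ratio of its group.

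**Figure D1:**
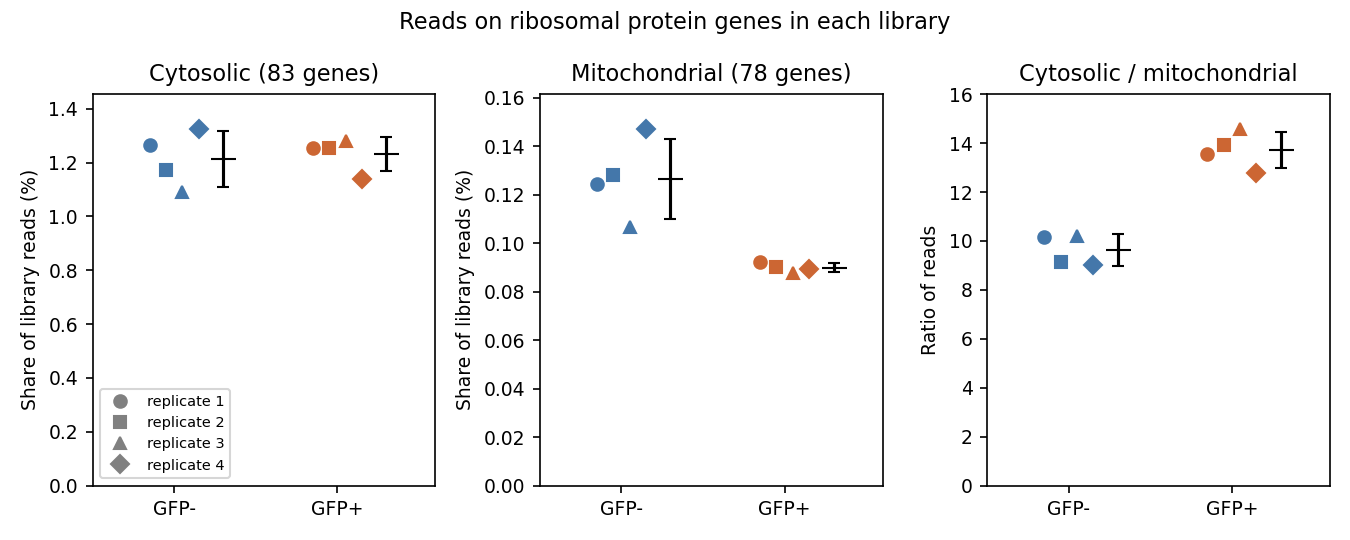
Share of library reads (%) on the 83 cytosolic and the 78 mitochondrial ribosomal protein genes, and the ratio of the 2, in each library; points are libraries (blue GFP-, orange GFP+, shape for the replicate number) and bars are the mean ± SD of 4. The cytosolic shares overlap between groups, the mitochondrial shares lie between 0.0879% and 0.0924% in GFP+ and between 0.107% and 0.147% in GFP- libraries, and the ratio is 12.8 or more in every GFP+ library and 10.2 or less in every GFP- library.

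Single genes were then compared with DESeq2 on all genes that had a count. Of the 83 cytosolic genes, 80 had a count and 77 received an adjusted p. Among those, 7 rose in GFP+ cells and 0 fell, which is 9.09% higher beside 4.66% of all 15283 genes tested. The edgeR quasi-likelihood test called 0 of the 77 in either direction, while it called 2.84% of all genes higher and 2.29% lower. At an unadjusted p under 0.05, edgeR had 16 cytosolic genes higher and 0 lower and DESeq2 had 15 and 0, beside 9.24% of all genes higher by edgeR and 10.2% by DESeq2. Leaving out GFP- replicates 1 to 4 in turn gave 4, 3, 6 and 3 DESeq2 calls, and leaving out GFP+ replicates 1 to 4 gave 1, 6, 1 and 4. Over all genes the same fits called 624, 506, 937 and 500 higher, then 563, 601, 460 and 606, beside 712 with all libraries. Without GFP+ replicate 1, none of the 7 genes was called and Rps28 was. The differences were small and mostly to the same side: 68 of 77 log2 fold changes (88.3%) were above 0, beside 49.5% of all genes, and their median was 0.27, beside -0.01 for all genes. The groups did not overlap for 12 of 77 genes, all higher in GFP+ cells, beside 6.37% of all genes.

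Of the 78 mitochondrial genes, 75 had a count and 74 received an adjusted p. Of these, 3 fell in GFP+ cells and 0 rose, with 12 lower and 0 higher at an unadjusted p under 0.05 (6 and 0 by edgeR), beside 10.8% of all genes lower by DESeq2 and 8.42% by edgeR, with the edgeR count, of 73 genes, near that share. The 3 calls are 4.05%, near the 4.76% of all genes called lower, so with all libraries the number of adjusted calls does not set the mitochondrial genes apart. edgeR called 2 of 73, both also called by DESeq2. Leaving out GFP- replicates 1 to 4 in turn gave 2, 2, 8 and 2 DESeq2 calls, and leaving out GFP+ replicates 1 to 4 gave 4, 2, 3 and 3. Over all genes the same fits called 522, 535, 900 and 469 lower, then 773, 615, 520 and 654, beside 727 with all libraries. Here too the values leaned to one side, with 55 of 74 log2 fold changes (74.3%) below 0, beside 50.5% of all genes, and a median of -0.39. The groups did not overlap for 8 genes, all lower in GFP+ cells, beside 5.95% of all genes. The standard errors were wider than for the cytosolic genes, with a median of 0.40 against 0.21 on the log2 scale, and the reads per gene were fewer: the median mitochondrial member had 12 reads in GFP- replicate 3 and 349.5 in GFP+ replicate 4, and the median cytosolic member 81 and 3654.

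**Figure D2:**
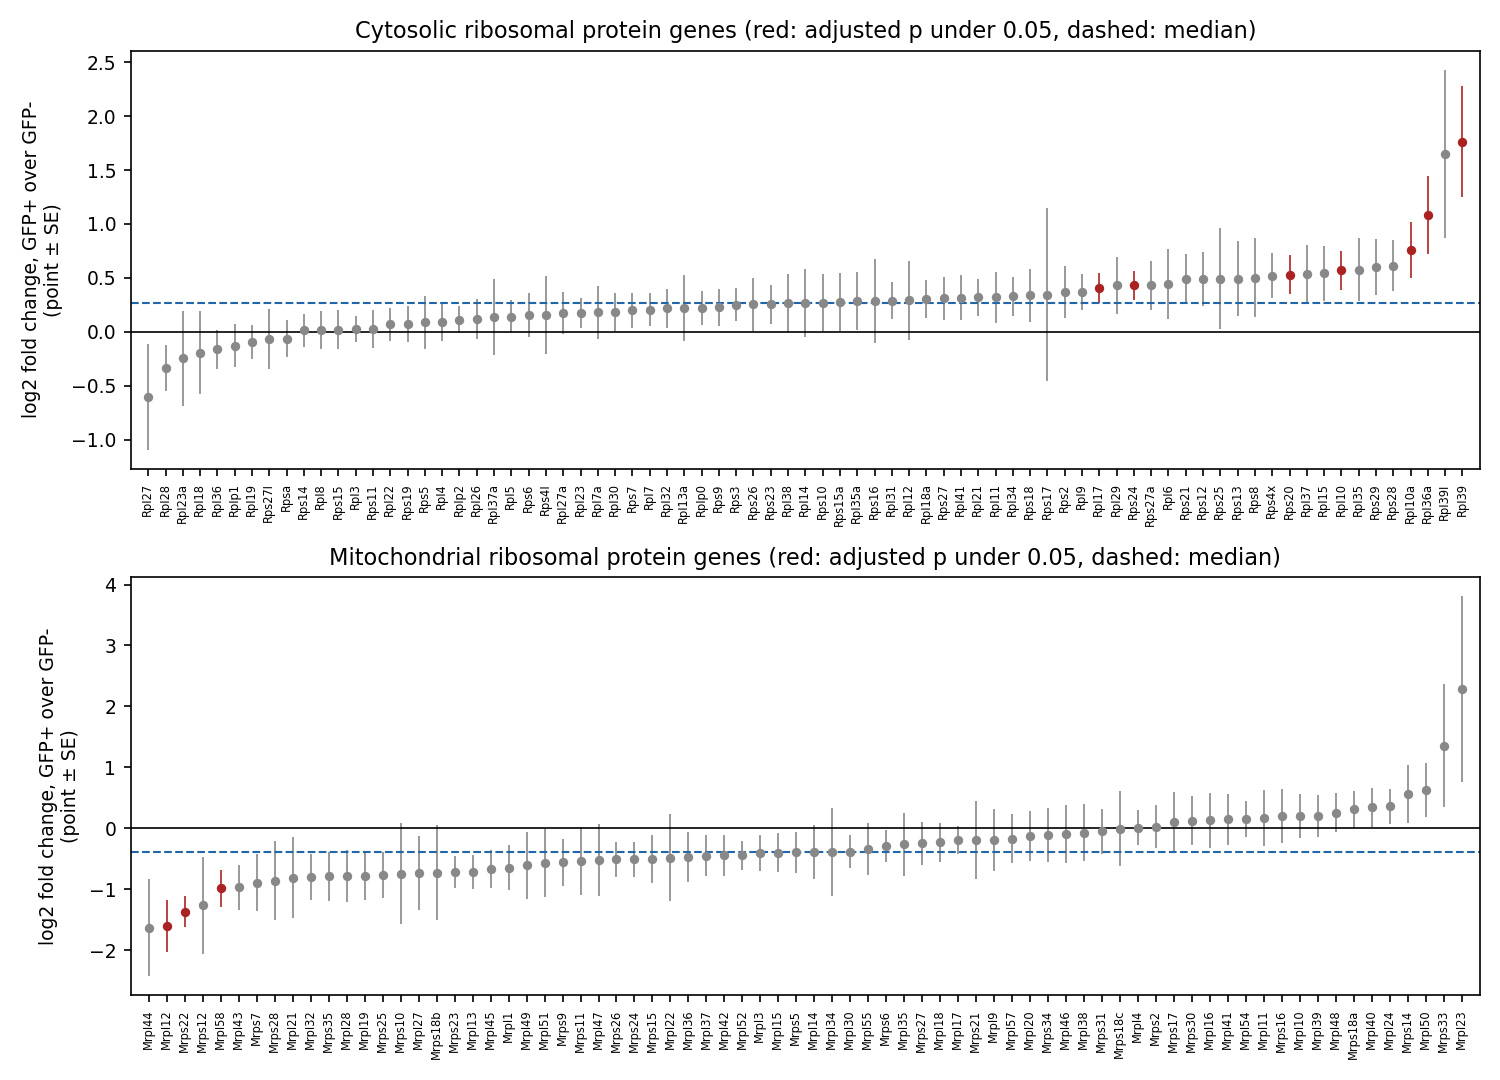
log2 fold change of GFP+ over GFP- cells for the 77 cytosolic (top) and 74 mitochondrial (bottom) ribosomal protein genes with an adjusted p, ordered by value; points are DESeq2 estimates, bars are ± 1 SE, red marks an adjusted p under 0.05 and the dashed line is the median of the panel. The cytosolic median is 0.27 and the mitochondrial median -0.39; the 7 red cytosolic points are above 0 and the 3 red mitochondrial points below 0.

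The subunits of each ribosome were also taken apart by the stem of the symbol, which places Mrps18a and Mrps30, proteins of the large subunit, with the small one. In the cytosolic ribosome, the small subunit had a median log2 fold change of 0.28 over 32 genes, 2 called higher, and the large subunit 0.22 over 45 genes, 5 called higher. In the mitochondrial ribosome, the small subunit had a median of -0.45 over 28 genes, 1 called lower, and the large subunit -0.39 over 46 genes, 2 called lower. The median deviation of a library, on the log2(normalised count + 1) scale and relative to the mean of each gene over 8 libraries, was 0.40, 0.25, -0.05 and 0.33 for the mitochondrial genes in GFP- replicates 1 to 4. It was -0.19, -0.12, 0.00 and -0.09 in GFP+ replicates 1 to 4. On this scale the groups overlapped, because GFP- replicate 3 lay among the GFP+ libraries, whereas on shares of reads it did not. For the cytosolic genes the median deviation was 0.09, -0.13, -0.22 and -0.11 in GFP- and 0.27, 0.02, 0.29 and 0.04 in GFP+ libraries, so that GFP- replicate 1 lay above GFP+ replicates 2 and 4.

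The mean level of the melanocyte markers (log2, normalised count + 1) moved with the group: it was 10.95, 10.95, 10.02 and 11.61 in GFP- and 6.25, 8.23, 7.11 and 8.98 in GFP+ replicates 1 to 4. When this score was added to the model as a covariate, 0 of 78 cytosolic and 0 of 75 mitochondrial genes tested were called by DESeq2, and 5 and 7 had an unadjusted p under 0.05, beside 5.11% of all genes tested in that fit. Of the genes called without the covariate, Rpl39, Rpl10, Rpl10a and Mrpl12 changed sign in that fit. The log2 fold changes of Mrps22 (-1.49), Rpl36a (1.33) and Rps20 (0.57) were at least as large as without it, and those of Mrpl58 (-0.38), Rpl17 (0.20) and Rps24 (0.11) were smaller. The cytosolic median became 0.06 and the mitochondrial median -0.15, and over all genes 20 were called higher and 29 lower with a median of 0.09. Over the genes of the main fit, the median of the mitochondrial small subunit turned to 0.19 and that of the large subunit was -0.27. Since the score does not overlap between groups, the melanocyte signal and the reporter state cannot be told apart with these libraries.

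**Figure D3:**
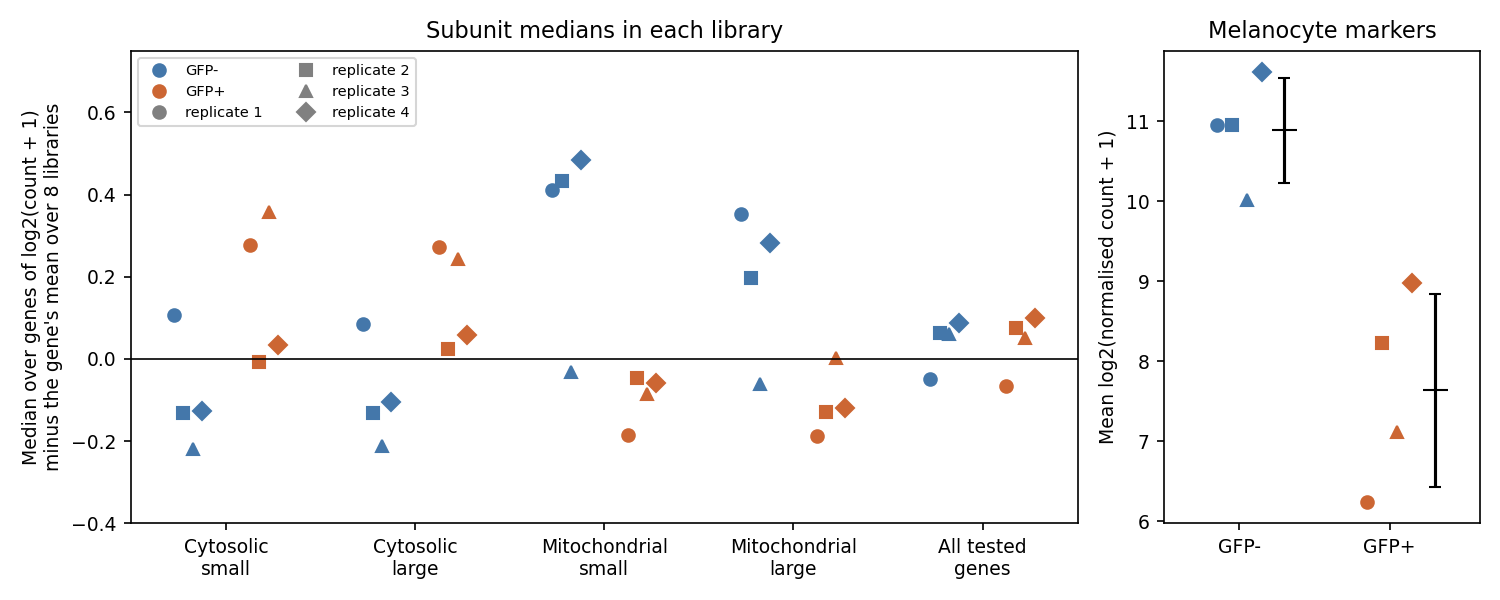
Left, median over genes of the log2(normalised count + 1) deviation from the mean of each gene over 8 libraries, for the subunits of both ribosomes and for all tested genes; right, mean log2(normalised count + 1) of the melanocyte markers with mean ± SD of 4. Points are libraries (blue GFP-, orange GFP+, shape for the replicate number). GFP- replicate 3 lies near the GFP+ libraries for both mitochondrial subunits, and the marker score lies between 10.02 and 11.61 in GFP- and between 6.25 and 8.98 in GFP+ libraries.

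The mitochondrial genes that fell in GFP+ cells belong to both subunits. Mrps22 encodes a protein of the small subunit and Mrpl12 a protein of the stalk of the large subunit that is also known to bind the mitochondrial RNA polymerase. Mrpl58 encodes a large subunit protein with peptidyl-tRNA hydrolase activity that frees stalled mitochondrial ribosomes. Their starts are shown because nuclear genes for mitochondrial proteins often carry sites for ETS family factors near the start, and these are the members on which the mitochondrial calls rest. Each window runs from 40 bases before the annotated start to 20 bases from it, in RefSeq's GRCm38.p6 annotation and in the direction of the gene, so the 41st letter is the start base. Capitals mark CCGGAAG, the core of the ETS motif (GABP among them), searched on both strands. Mrps22 lies on the minus strand (chr9:98601660-98601719), Mrpl58 on the plus strand (chr11:115403712-115403771) and Mrpl12 on the plus strand (chr11:120484597-120484656).
Mrps22: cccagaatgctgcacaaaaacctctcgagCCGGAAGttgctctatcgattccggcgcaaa
Mrpl58: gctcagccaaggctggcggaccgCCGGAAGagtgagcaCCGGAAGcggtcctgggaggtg
Mrpl12: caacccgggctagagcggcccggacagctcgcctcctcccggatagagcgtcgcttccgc
The core occurs once near the start of Mrps22 and in 2 places at that of Mrpl58, and is not in the printed window of Mrpl12.

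Windows of 250 bases before to 50 after the start were found for 69 of 78 mitochondrial and 61 of 83 cytosolic genes. CCGGAAG was in 37.7% of the mitochondrial, 41% of the cytosolic and 9.93% of all 27025 genes with a window. AAGATGGC, the core of the YY1 motif, was in 17.4% of the mitochondrial, 8.2% of the cytosolic and 3.19% of all genes, on either strand. The ETS core was found in similar shares of the set whose values leaned up and of the set whose values leaned down. A match describes letters and not a bound site.

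Mrps22 (chromosome 9, 98588730 to 98601660, minus strand, GRCm38) had 294, 229, 209 and 276 normalised counts in GFP- and 95.8, 105, 118 and 79.8 in GFP+ replicates 1 to 4. The groups were well apart, with the lowest GFP- value above the highest GFP+ value even though the former rested on 19 reads. The log2 fold change was -1.37 ± 0.26 (SE), with adjusted p-values of 7.8e-06 (DESeq2) and 0.0222 (edgeR). Over the fits that left out 1 library each, its DESeq2 adjusted p ran from 1.54e-06 to 0.00206.

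Mrpl12 (chromosome 11, 120484613 to 120489065, plus strand) had 425, 432, 275 and 494 normalised counts in GFP- and 36.1, 170, 171 and 159 in GFP+ replicates 1 to 4. GFP+ replicate 1 stood far below the other GFP+ libraries, which agreed closely among themselves. The log2 fold change was -1.60 ± 0.43 (SE), with adjusted p-values of 0.00386 (DESeq2) and 0.0422 (edgeR), and it was -1.31 with a DESeq2 adjusted p of 9.21e-06 without GFP+ replicate 1.

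Mrpl58 (chromosome 11, 115403752 to 115412674, plus strand) had 278, 293, 209 and 295 normalised counts in GFP- and 88.9, 110, 187 and 165 in GFP+ replicates 1 to 4. The groups did not overlap, with GFP- replicate 3 closest to the GFP+ libraries. The log2 fold change was -0.98 ± 0.31 (SE), with adjusted p-values of 0.0201 (DESeq2) and 0.114 (edgeR). It was not called without GFP- replicate 1, 2 or 4 or GFP+ replicate 1 or 2, and its DESeq2 adjusted p then reached 0.118.

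Other mitochondrial members with large differences did not pass the test. Among those with a mean of at least 50 normalised counts, the largest were falls in Mrpl44, Mrps12 and Mrpl43. Below that mean, log2 fold changes reached 2.29 in the large and 1.36 in the small subunit, and these were not called either. Mrpl44, a large subunit protein with a ribonuclease III fold, had 62.4, 135, 44.0 and 108 normalised counts in GFP- and 0, 40.2, 41.5 and 32.9 in GFP+ replicates 1 to 4. A count of 0 in GFP+ replicate 1 allows up to 4.17 normalised counts (3 reads), and the log2 difference was -1.63 ± 0.80 (SE, DESeq2 adjusted p = 0.211). Mrps12, a protein of the decoding region of the small subunit, also had 0 reads in GFP+ replicate 1 and 37.2 to 65.8 normalised counts in the other GFP+ libraries, against 54.9 to 117 in GFP- libraries. The log2 difference was -1.26 ± 0.80 (SE, DESeq2 adjusted p = 0.382). In all, 4 of 74 mitochondrial members were at 0 in GFP+ replicate 1, 2 in each of GFP- replicates 1 and 3, and none in the other libraries.

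Mrpl43, of the large subunit, had 107 to 190 normalised counts in GFP- and 46.1 to 101 in GFP+ libraries, with no overlap and a log2 difference of -0.96 ± 0.37 (SE, DESeq2 adjusted p = 0.0807). The genes with the highest mean level per kilobase of exon were Mrpl52 (288 normalised counts per kilobase), Mrps28 (217) and Mrpl54 (194). Mrpl52, a large subunit protein, had 307 to 484 normalised counts in GFP- and 221 to 305 in GFP+ libraries, just without overlap, a log2 difference of -0.44 ± 0.24 (SE, DESeq2 adjusted p = 0.285). Mrps28 had 137 to 286 in GFP- libraries and 6.94, 193, 127 and 153 in GFP+ replicates 1 to 4, again with GFP+ replicate 1 far below the others (DESeq2 adjusted p = 0.499). Mrpl54 had a log2 fold change of 0.15 ± 0.29 (SE).

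The bacterial S18 protein has 3 mitochondrial counterparts in mammals, Mrps18a, Mrps18b and Mrps18c, the first in the large and the others in the small subunit. Per kilobase of exon their mean levels were 48.7, 15.4 and 54.6 normalised counts. Their log2 fold changes were 0.31 ± 0.30 (SE), -0.73 ± 0.78 (SE) and -0.01 ± 0.61 (SE), and none passed the test. Mrpl33, Mrpl2 and Mrpl53 had no read in any library, and 100% of the 50-base words of Mrpl53, 30.3% of those of Mrpl33 and 0% of those of Mrpl2 also occur in transcripts of another gene. Mrps36 had a count but received no adjusted p. The reason for the missing reads was not tested.

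The cytosolic genes that rose were, by adjusted p, Rpl39, Rps24, Rpl10, Rpl36a, Rpl10a, Rpl17 and Rps20, and in each of them every GFP+ library lay above every GFP- library. All are structural proteins: Rps24 and Rps20 sit in the small subunit and the others in the large subunit, where Rpl39 and Rpl17 lie at the tunnel through which the new chain leaves, Rpl10a in the L1 stalk, and Rpl10 joins late in assembly.

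Rpl39 (chromosome X, 37082520 to 37085402, minus strand) had 115, 86.0, 87.9 and 91.4 normalised counts in GFP- and 733, 136, 276 and 157 in GFP+ replicates 1 to 4. The GFP- libraries were close to each other and the GFP+ libraries were spread widely, with replicate 1 highest. The log2 fold change was 1.76 ± 0.51 (SE), with adjusted p-values of 0.0103 (DESeq2) and 0.0607 (edgeR). Without GFP+ replicate 1 it was 0.99 with a DESeq2 adjusted p of 0.0732, so the call rested on that library.

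Rps24 (chromosome 14, 24487125 to 24496959, plus strand) had 2617, 2682, 2857 and 2461 normalised counts in GFP- and 3624, 3499, 3999 and 3146 in GFP+ replicates 1 to 4. Both groups were narrow and the difference was small, a log2 fold change of 0.43 ± 0.14 (SE), with adjusted p-values of 0.0204 (DESeq2) and 0.0918 (edgeR). Rpl10 (chromosome X, 74270812 to 74273135, plus strand) had 1750, 1804, 1659 and 1421 in GFP- and 2833, 2017, 2843 and 2183 in GFP+ libraries. The log2 difference was 0.57 ± 0.18 (SE), with adjusted p-values of 0.0213 (DESeq2) and 0.0609 (edgeR).

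Rpl36a (chromosome X, 134585654 to 134588062, plus strand) had 332, 391, 76.9 and 352 normalised counts in GFP- and 764, 449, 659 and 675 in GFP+ replicates 1 to 4. The lowest value, in GFP- replicate 3, rested on 7 reads. The log2 fold change was 1.08 ± 0.36 (SE, DESeq2 adjusted p = 0.0306, edgeR adjusted p = 0.0971), and it was 0.82 with a DESeq2 adjusted p of 0.00606 without that library. Of the 50-base words of its transcripts, 85.5% also occur in other genes, mostly pseudogenes, so its count is uncertain. The share was 73.7% for Rpl10, 62.4% for Rpl10a, 44.7% for Rpl17, 16.2% for Rpl39, 15.3% for Rps24 and 7.44% for Rps20.

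Rpl10a (chromosome 17, 28328471 to 28331033, plus strand) had 307, 367, 396 and 370 normalised counts in GFP- and 855, 487, 640 and 445 in GFP+ replicates 1 to 4, a log2 fold change of 0.76 ± 0.26 (SE, DESeq2 adjusted p = 0.0369, edgeR adjusted p = 0.0834). Rpl17 (chromosome 18, 74998558 to 75003381, plus strand) ranged from 1912 to 2253 in GFP- and from 2508 to 3062 in GFP+ libraries. The log2 difference was 0.41 ± 0.14 (SE, DESeq2 adjusted p = 0.038, edgeR adjusted p = 0.112). Rps20 (chromosome 4, 3831334 to 3835665, minus strand) had 967 to 1403 in GFP- and 1530 to 2004 in GFP+ libraries, a log2 difference of 0.53 ± 0.18 (SE, DESeq2 adjusted p = 0.0384, edgeR adjusted p = 0.0896). Only Rpl39 among the 7 was still called after removing the dependence of counts on GC content and exonic length in each library. The log2 fold changes of the other 6 were about as large or larger in that fit (Rps24 0.42, Rpl10 0.62, Rpl36a 1.15, Rpl10a 0.92, Rpl17 0.41 and Rps20 0.53).

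**Figure D4:**
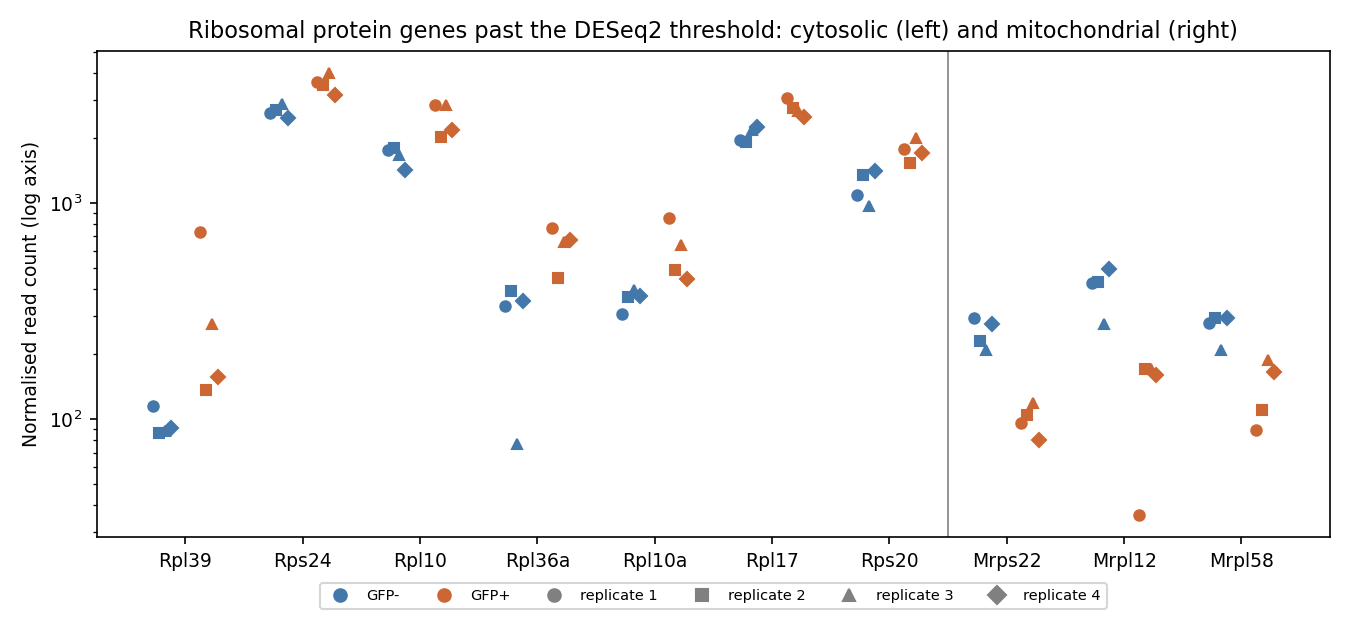
Normalised read count (log axis) in each library for the 10 ribosomal protein genes past the DESeq2 threshold, 7 cytosolic (left of the line) and 3 mitochondrial (right); points are libraries, blue GFP- and orange GFP+, with a shape for each replicate number. The colours do not overlap in any gene; Rpl36a in GFP- replicate 3 (76.9), Rpl39 in GFP+ replicate 1 (733) and Mrpl12 in GFP+ replicate 1 (36.1) stand apart from their groups.

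Most cytosolic genes differed by less. Among uncalled genes averaging 50 or more normalised counts, Rps28 had the largest log2 fold change at 0.61 ± 0.24 (SE, DESeq2 adjusted p = 0.0845), with 321 to 364 normalised counts in GFP- and 398 to 638 in GFP+ libraries and no overlap. It was followed by Rpl27 at -0.60 ± 0.49 (SE, DESeq2 adjusted p = 0.54) and Rps29 at 0.60 ± 0.26 (SE, DESeq2 adjusted p = 0.137). All 3 are structural proteins of their subunits. Rps4x, a small subunit protein encoded on chromosome X, had 967 to 1818 in GFP- and 2070 to 2504 in GFP+ libraries, without overlap but with a DESeq2 adjusted p of 0.0996.

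Per kilobase of exon, the most abundant cytosolic messages were Rplp1 (11680 normalised counts per kilobase), Rpl8 (4308) and Rpl4 (3672), and none of them differed beyond its error. Their log2 fold changes were -0.13 ± 0.20 (SE), 0.02 ± 0.18 (SE) and 0.10 ± 0.18 (SE). Rplp0, Rplp1 and Rplp2 form the stalk that recruits translation factors. Rplp0 had 4021 to 5050 normalised counts in GFP- and 4218 to 5607 in GFP+ libraries, and Rplp2 2831 to 3096 and 2852 to 3464, so both overlapped. Rpsa, which is also known as a laminin receptor, had a log2 fold change of -0.06 ± 0.17 (SE).

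Rpl5 and Rpl11, which bind Mdm2 when ribosome assembly is disturbed, had log2 fold changes of 0.14 ± 0.15 (SE) and 0.32 ± 0.23 (SE). Rps6, the substrate of S6 kinase, was at 0.16 ± 0.20 (SE), and Rps27a, which is made as a fusion with ubiquitin, at 0.43 ± 0.23 (SE, DESeq2 adjusted p = 0.254). Rpl13a was at 0.22 ± 0.30 (SE) and Rpl22 at 0.07 ± 0.16 (SE). None of these passed the test.

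Several cytosolic proteins have a second gene with narrower expression. The levels per kilobase of exon were 1200 normalised counts for Rpl3 and 0.880 for Rpl3l, known from muscle. They were 147 for Rpl39 and 24.7 for Rpl39l, known from testis, and 799 for Rps27 and 169 for Rps27l. Rpl10l, the testis copy of Rpl10, had no read in any library. Rpl39l had 5.02 to 22.0 normalised counts in GFP- and 15.1 to 55.5 in GFP+ libraries, which overlapped, and its log2 fold change of 1.65 ± 0.78 (SE) did not pass (DESeq2 adjusted p = 0.188). Rps27l, a p53 target, was at -0.07 ± 0.28 (SE) and Rps27 at 0.31 ± 0.20 (SE).

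Some core members were hardly counted. Rpl13 had no read and Rpl24 had 1 read over all libraries, and 80.3% and 81.7% of their 50-base words occur in other genes. Across the 77 cytosolic genes tested, the 18 with more than 50% of such words had a median log2 fold change of 0.34 and 3 calls. The other 59 had 0.26 and 4 calls, and still include genes such as Rps7, with 49.5% shared words. The part of shared words in these values was not tested. The processed pseudogenes named after cytosolic members took 0.00455% to 0.0165% of reads.

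The messages of cytosolic ribosomal proteins are known for a run of pyrimidines at the very start, the TOP motif, through which mTOR and the RNA-binding protein Larp1 control their translation. Starts of 4 members are shown in capitals for runs of 6 or more C or T that begin within 5 bases of the annotated start base, again the 41st letter, to show what the motif looks like in named genes. Rps6 lies on the minus strand (chr4:86857348-86857407), Rps27 on the minus strand (chr3:90213629-90213688), Rplp2 on the plus strand (chr7:141447611-141447670) and Rps24, which rose, on the plus strand (chr14:24490638-24490697), all in GRCm38.p6.
Rps6: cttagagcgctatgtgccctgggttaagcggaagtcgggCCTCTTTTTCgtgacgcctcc
Rps27: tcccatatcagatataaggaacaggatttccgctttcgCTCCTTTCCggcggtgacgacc
Rplp2: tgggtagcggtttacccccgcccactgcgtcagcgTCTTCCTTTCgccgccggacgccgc
Rps24: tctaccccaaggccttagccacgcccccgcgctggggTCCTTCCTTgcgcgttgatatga
A C at the annotated start base followed by at least 4 pyrimidines was found in 14 of 61 cytosolic genes (23%), in 0 of 69 mitochondrial genes and in 3.01% of all genes. Runs of 6 near the start were in 36.1% of cytosolic, 8.7% of mitochondrial and 14.1% of all genes. The count depends on the exactness of the annotated start, and of the 5 genes that rose and had a window 1, Rps24, held such a run. Rps24 has another annotated start (window chr14:24490713-24490772), at which no such run was found.

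The other genes that make and use ribosomes were read from lists, whose counts stand beside 4.66% of all genes called higher and 4.76% called lower by DESeq2. Among proteins of the ribosomes that the symbol rule leaves out, Rps3a1 of the small cytosolic subunit rose, with 1245 to 1461 normalised counts in GFP- and 1550 to 2365 in GFP+ libraries. The log2 difference was 0.58 ± 0.18 (SE, DESeq2 adjusted p = 0.0165, edgeR adjusted p = 0.0542). It was 0.25 with the melanocyte covariate (DESeq2 adjusted p = 1), and the call was lost without GFP- replicate 2 or 4 or GFP+ replicate 3 or 4, with an adjusted p of up to 0.106. The other 4 cytosolic and all 5 mitochondrial genes of these lists did not pass.

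RNA polymerase I subunits and factors had 0 of 15 genes called by DESeq2 or edgeR (unadjusted p under 0.05: 1 by DESeq2, 0 by edgeR) and a median log2 fold change of 0.04, which was -0.05 without GFP+ replicate 1 and -0.09 with the melanocyte covariate. Ribosome biogenesis factors, which process ribosomal RNA and assemble subunits, had 1 of 65 called, lower, and a median of -0.14 (-0.17 with the melanocyte covariate). The called gene was Wdr12, of the PeBoW complex for the large subunit, with 154 to 342 normalised counts in GFP- and 97.9 to 143 in GFP+ libraries, without overlap. This was a log2 fold change of -1.24 ± 0.29 (SE, DESeq2 adjusted p = 0.00064, edgeR adjusted p = 0.0474), and -1.13 with the melanocyte covariate (DESeq2 adjusted p = 1). Cytosolic ribosomal protein genes and the genes that assemble their products thus had medians on different sides of 0.

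Of 49 cytosolic translation factors, 1 rose and 4 fell by DESeq2, which is 2.04% and 8.16% beside 4.66% and 4.76% of all genes, and edgeR called 1 higher and 0 lower. Their median was -0.04 (-0.20 with the melanocyte covariate). Tpt1, a TOP-bearing growth regulator that binds elongation factors, rose, with 7493 to 9588 normalised counts in GFP- and 11760 to 13390 in GFP+ libraries (log2 fold change 0.58 ± 0.13 SE, DESeq2 adjusted p = 0.000271, edgeR adjusted p = 0.0245). Denr, which acts in re-initiation and recycling, fell by 0.81 on the log2 scale (DESeq2 adjusted p = 0.0163, edgeR adjusted p = 0.0651), and Eif3d, a cap-binding initiation subunit, fell by 0.54 (DESeq2 adjusted p = 0.0271, edgeR adjusted p = 0.102). With the melanocyte covariate the log2 fold changes were 0.48 for Tpt1, -0.22 for Denr and -0.51 for Eif3d, each with a DESeq2 adjusted p of 1. Eif3d was called in 5 of 17 settings and Denr in 11, and over the fits that left out 1 library each their adjusted p reached 0.146 and 0.104. Of 19 cytosolic tRNA synthetases tested, 19 had a log2 fold change below 0, beside 50.5% of all genes, with a median of -0.33 (-0.40 with the melanocyte covariate), and 0 were called by DESeq2 or edgeR. At an unadjusted p under 0.05, DESeq2 had 8 of them lower and edgeR 6, beside 10.8% and 8.42% of all genes.

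All 10 mitochondrial translation factors were below 0, with a median of -0.84 and 1 called, and with the melanocyte covariate their median turned to 0.17. Gfm1, the elongation factor that moves the mitochondrial ribosome along the message, had 534 to 662 normalised counts in GFP- and 314 to 423 in GFP+ libraries, without overlap. This was a log2 fold change of -0.72 ± 0.18 (SE, DESeq2 adjusted p = 0.00249, edgeR adjusted p = 0.0482), and -0.48 with the melanocyte covariate (DESeq2 adjusted p = 1). The mitochondrial tRNA synthetases had 0 of 20 called by DESeq2 and 0 of 19 by edgeR (unadjusted p under 0.05: 1 by DESeq2, 0 by edgeR) and a median of -0.17 (0.05 with the melanocyte covariate). Assembly factors of the mitochondrial ribosome had 1 of 24 called, Trub2, a pseudouridine synthase, with 187 to 275 normalised counts in GFP- and 88.9 to 147 in GFP+ libraries (log2 fold change -0.93 ± 0.28 SE, DESeq2 adjusted p = 0.0125, edgeR adjusted p = 0.132), and a median of -0.22 (0.30 with the melanocyte covariate). Trub2 was at -0.66 with that covariate (DESeq2 adjusted p = 1) and was not called without GFP- replicate 1 or 4 or GFP+ replicate 2 or 4, with an adjusted p of up to 0.094.

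The RNAs that mitochondrial ribosomes contain and translate had lower mean shares in GFP+ cells, with overlap between groups. The 2 mitochondrial ribosomal RNAs took 4.30% to 5.55% of reads in GFP- and 3.36% to 5.01% in GFP+ libraries. Of the 13 protein genes of mitochondrial DNA, only 8 had a read in any library. Together they took 0.418% to 0.610% of reads in GFP- and 0.315% to 0.493% in GFP+ libraries. Of these, 0 of 7 tested protein genes and 0 of 2 ribosomal RNAs were called by DESeq2 or edgeR, and at an unadjusted p under 0.05 each tool had 1 protein gene, lower, and no ribosomal RNA. Their median log2 fold changes, -0.26 and -0.13, turned to 0.20 and 0.26 with the melanocyte covariate. With each library's GC and length trend removed these medians were -0.50 and -0.37. They were -0.35 and -0.23 without GFP- replicate 3, and -0.14 and -0.07 without GFP+ replicate 1.

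**Figure D5:**
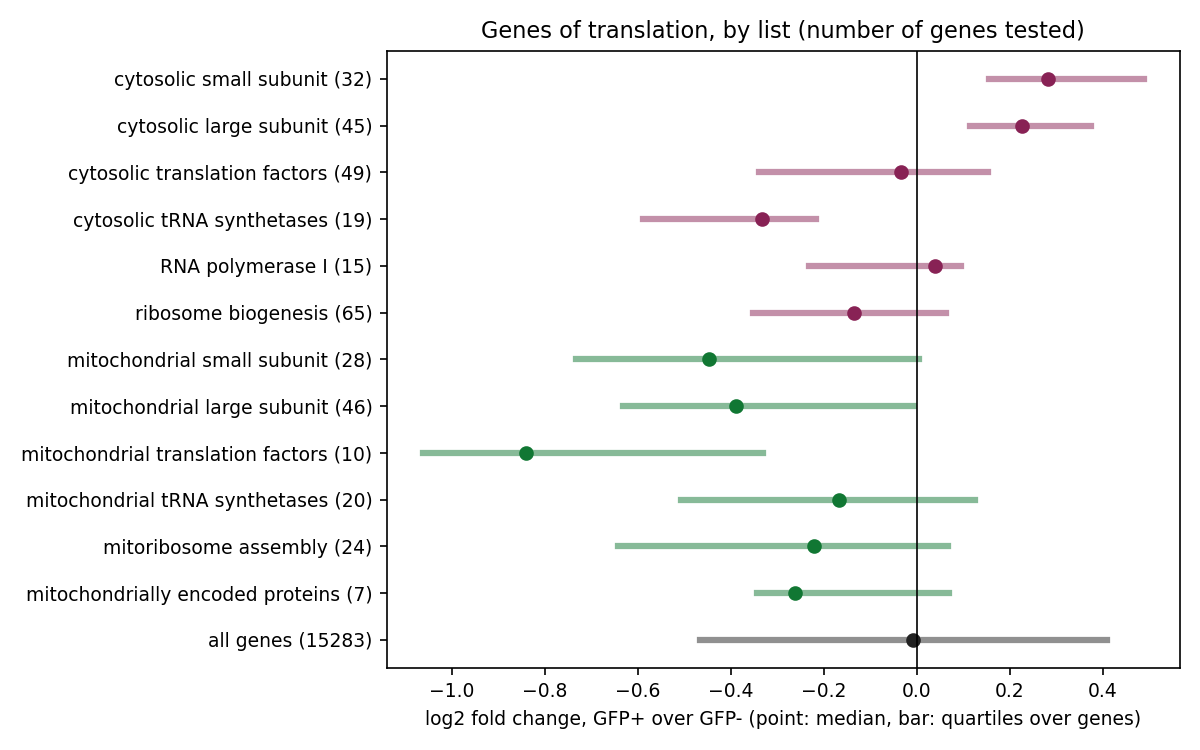
Median (point) and quartiles (bar) over genes of the log2 fold change of GFP+ over GFP- cells for the subunits of both ribosomes, other lists of translation genes and all tested genes, with the number of genes tested in brackets (purple cytosolic, green mitochondrial, black all genes). The 2 cytosolic subunits have medians of 0.28 and 0.22, the mitochondrial lists have medians between -0.84 and -0.17, and all genes have -0.01.

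Of 26 tested regulators of ribosome synthesis and growth, 1 rose and 2 fell, which is 3.85% and 7.69% beside 4.66% and 4.76% of all genes. Myc, which drives transcription of ribosome genes, rose, with 1703 to 2582 normalised counts in GFP- and 2843 to 4391 in GFP+ libraries. This was a log2 fold change of 0.69 ± 0.21 (SE, DESeq2 adjusted p = 0.0175, edgeR adjusted p = 0.0482). The call was lost without GFP- replicate 1 or 2 or GFP+ replicate 1 or 3, with a DESeq2 adjusted p of up to 0.107, and with each library's GC and length trend removed. Larp1 fell, with 2208 to 2790 in GFP- and 1158 to 1854 in GFP+ libraries, a log2 fold change of -0.68 ± 0.19 (SE, DESeq2 adjusted p = 0.0073, edgeR adjusted p = 0.0436). Ppargc1a, a coactivator known to raise mitochondrial gene expression, fell, with 890 to 2211 in GFP- and 121 to 336 in GFP+ libraries, a log2 fold change of -2.63 ± 0.36 (SE, DESeq2 adjusted p = 1.38e-10, edgeR adjusted p = 0.00125). With the melanocyte score as a covariate the log2 fold changes were 0.0063 for Myc, -0.05 for Larp1 and -1.16 for Ppargc1a, each with a DESeq2 adjusted p of 1, so none of the 3 was called in that fit.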

How the data were processed

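The authors sequenced stranded total RNA libraries, trimmed reads with cutadapt 3.4, mapped them to GRCm38 with STAR 2.7.3a and counted them per Ensembl gene and strand with featureCounts 2.0.1, and deposited raw read counts for 8 libraries. Their normalised columns, deposited as a score per gene (count over DESeq2 size factor), served only to check the size factors; their fold changes and p-values were not used. Per-sample columns left unused: 0.

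All 29043 genes with a count were fitted in R 4.3.3 with DESeq2 1.42.0 (Wald test, group only, Benjamini-Hochberg adjusted p under 0.05), beside edgeR 4.0.16 (quasi-likelihood test). The DESeq2 and edgeR code was tested on simulated data. Members and lists were chosen with earlier results of these data known. Coordinates and merged exon lengths came from GENCODE M21 on GRCm38, and start windows from RefSeq (GRCm38.p6). A 50-base word was shared when a transcript of another gene held it. Replicates of a group differed by 10.2 to 81.3 chi-square units per degree of freedom, more than counting noise alone, so none was treated as a library deposited again.

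Genes named were, per ribosome, the called ones, the 3 uncalled with the largest change at a mean normalised count of at least 50, the 3 highest per kilobase of exon, a set of well-known members, and up to 3 called genes per list. Melanocyte, leukocyte, endothelial and fibroblast markers were read as sums.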

Additional observations from a re-analysis of the deposited data

Results flagged for a closer look

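Among 102 groups of 4 libraries examined, 3 held a library whose distance from its nearest neighbour was a larger part of the range of the group than Dixon's 95% limit allows. Chance alone gives about 1 such group in 20. Mrpl12 in GFP+ replicate 1 had 36.1 normalised counts, beside 159 to 171 in the other GFP+ libraries. Larp1 in the same library had 1158, beside 1740 to 1854. Mrps18b in GFP- replicate 3 had 22.0, from a library in which 1 read is worth 11.0 normalised counts, beside 43.6 to 47.5 in the other GFP- libraries. Over all 151 members with an adjusted p, such a distance was seen for 10 genes in GFP+ replicate 1 and 5 in GFP- replicate 3, and for 3 genes or fewer in each other library. In GFP+ replicate 1, 1 of the 10 lay below its group and the rest above. In GFP- replicate 3, 4 of the 5 lay below.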

How the results depend on the processing

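The count of cytosolic genes higher in GFP+ cells was the least stable result. It was 7 with DESeq2, 0 with edgeR, 0 with edgeR without the shallowest library (a setting chosen after seeing the data), 3 without independent filtering, 1 with each library's GC and length trend removed and 0 with the melanocyte score as a covariate. Leaving out 1 library gave 1 to 6, with 1 call without GFP+ replicate 1 (Rps28) and 1 without GFP+ replicate 3 (Rpl39). The count of mitochondrial genes lower was 3, and 0 with the melanocyte covariate. Leaving out 1 library gave 2 to 8, with 8 without GFP- replicate 3, the shallowest, which held all 3 calls and Mrpl13, Mrpl28, Mrpl45, Mrps23 and Mrps35 in addition. Over all genes, 900 were called lower without GFP- replicate 3, beside 727 with all libraries. The medians over all members of each ribosome kept their sign in all settings run and moved by more than the spread between replicates with the melanocyte covariate only, to 0.057 (cytosolic) and -0.15 (mitochondrial). Medians of parts and lists did not all keep it: with that covariate the mitochondrial small subunit, translation factors, assembly factors and tRNA synthetases, the RNAs of mitochondrial DNA, RNA polymerase I and the cytosolic proteins outside the symbol rule turned. The difference in read share, 0.0196 percentage points for cytosolic and -0.0367 for mitochondrial genes, became 0.169 and -0.0237 when totals were scaled by TMM factors. With mitochondrially encoded genes left out of the totals it was 0.0038 and -0.0402. Leaving out 1 library gave -0.0217 to 0.0566 for cytosolic and -0.0434 to -0.0299 for mitochondrial genes. The cause of these moves was not tested.

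Of 49 named genes, the sign turned in 23 with the melanocyte covariate and in 7 with another setting. The log2 fold changes of those 7 were smaller than their SE. The genes whose value had exceeded its SE, or that had been called, were 12, all with the covariate and an adjusted p of 1 there: Rpl39 (-0.93), Rpl10 (-0.0024), Rpl10a (-0.27), Rpl27 (0.53), Mrpl12 (0.13), Mrpl44 (1.07), Mrps12 (1.43), Mrps28 (0.88), Rplp0 (-0.14), Rps27a (-0.064), Rpl39l (-0.42) and Mrps18a (-0.0019, log2 fold changes). Mrps22 and Mrpl12 were called in 16 of 17 settings, Rpl39 in 13 and the other called members in 10 or fewer.

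Replicate numbers are shared between the groups, but deviations of same-numbered libraries correlated at 0.15, -0.15, -0.12 and 0.24, so the numbers were not taken as pairs. With the replicate number as a block, 4 cytosolic genes were called higher and 3 mitochondrial genes lower. Depth limits the mitochondrial genes most, with a median of 12 reads a gene in GFP- replicate 3.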

Other observations

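The cytosolic members on chromosome X were singled out after their values were seen. They are Rpl10, Rpl36a, Rpl39 and Rps4x, each had every GFP+ library above every GFP- library, and 3 of the 4 were called by DESeq2 and 0 by edgeR. Their median log2 fold change was 0.83, beside 0.26 for the 73 tested cytosolic members on autosomes. Over all genes tested, the median was 0.14 for 501 genes on chromosome X and -0.01 for 14750 genes on autosomes, and 6.39% of the former and 4.60% of the latter were called higher.

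The cytosolic share of reads and the cytosolic fold changes rest on different totals. The share was 1.02 times as high in GFP+ as in GFP- libraries, and the sum of normalised counts was 1.15 times as high, 138000 ± 14240 (SD, n = 4) against 120400 ± 12100 (SD, n = 4). For the mitochondrial genes the ratios were 0.710 and 0.801.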
